A study of Mus musculus with 384 samples.

Results

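The interferon regulatory factors (IRFs) are transcription factors that share a DNA-binding domain and recognise GAAA-containing elements in the promoters of interferon and immune genes. The genes described here are the 8 listed family members Irf1, Irf2, Irf3, Irf4, Irf5, Irf7, Irf8 and Irf9, taken by symbol from 46078 gene rows in the count tables of single granulocyte/macrophage progenitors (GMPs). GMPs are marrow progenitors from which neutrophils and monocytes arise. They were sorted as lineage-negative, c-Kit+, Sca-1-, CD34+ and FcγR+ cells, 1 per well, and read by SMART-seq2, a full-length cDNA method without molecular identifiers. The BCR-ABL sets came from C57Bl/6 Scl-tTA::TRE-BCR/ABL mice, in which Scl regulatory sequences drive the tetracycline transactivator in early blood cells and BCR-ABL, the fusion kinase of chronic myeloid leukaemia, is switched on when doxycycline is removed. For these mice the protocol gives doxycycline at 20 mg per L during breeding, withdrawal at 5 weeks of age, and analysis of BCR-ABL and control mice 5 to 6 weeks later. The same dose, age and time are recorded for the control set. The control set is labelled C57Bl/6 and control, with no genotype beyond that. There were 3 BCR-ABL sets (replicates 1, 2 and 4) and 1 control set of 96 wells each. The labels do not say whether each set is 1 animal or a pool, so the spread between sets may in part be technical, and for the single control set, condition and set cannot be told apart.

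In GMPs the family has several known roles. Irf8 directs progenitors towards monocytes and dendritic cells and restrains neutrophil production, and its loss in mice gives a disease that resembles chronic myeloid leukaemia. Irf3, Irf5 and Irf7 are switched on by pathogen sensors and turn on interferon and cytokine genes. Irf9 is part of the complex that carries the type I interferon signal to the nucleus, and Irf1 and Irf2 activate and restrain many of the same targets.

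Of 384 wells, 323 passed a minimum of 50000 reads on genes and 1000 detected genes. They were 76, 61, 92 and 94 cells of BCR-ABL replicate 1, replicate 2, replicate 4 and the control, and every list of 4 values below follows that order. The kept cells of a set held between 121378632 and 140995697 reads on genes in all, and median depth per cell was between 1200639 and 2084608 reads. One kept well of replicate 4 stood apart with 19454 genes with a read, against at most 11679 in any other. Without it the log2 fold changes of 7 members moved by at most 0.01, and that of Irf4 is given below. The gate transcript Cd34 was lower in all BCR-ABL sets (149, 182 and 155 reads per 1e6 reads on genes, CPM, against 436), while Kit (261, 242 and 309 against 236) and the Fcγ receptor gene Fcgr3 (702, 573 and 573 against 577) were not. Sets also differed in sex-linked RNA, with Xist at 5 CPM or more in 75 of 76, 0 of 61, 3 of 92 and 94 of 94 cells. The part of Cd34 level and of sex in the differences below was not tested.

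Levels are given as CPM in the sum over the kept cells of a set, scaled by edgeR's normalisation factors. Such sums cannot tell fewer cells with a transcript from less RNA per cell, so shares of cells at equal depth are given beside them. Between genes, levels are compared only as CPM per kilobase of exon. In the control, Irf8 came first at 139 CPM per kilobase, followed by Irf3 at 33.3, Irf1 at 21.5, Irf5 at 18.1 and Irf9 at 12. Irf2 at 3.2, Irf7 at 0.725 and Irf4 at 0.0998 came last. Over the 3 BCR-ABL sets the order at the top was not fixed. Irf8 averaged 35.4 ± 25.8 CPM per kilobase (SD, n = 3), which overlapped Irf3 at 28.5 ± 3.6 and Irf1 at 19.5 ± 1.26, while Irf3 exceeded Irf1 in each set. Irf5 (6.28 ± 2.34) and Irf9 (4.62 ± 0.751) overlapped as well, and Irf2 (2.82 ± 0.17), Irf7 (0.532 ± 0.373) and Irf4 (0.00261 ± 0.000828) followed without overlap. In replicate 4 Irf8 ranked behind Irf3 and Irf1, at 8.7 against 24.4 and 20.6 CPM per kilobase.

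**Figure D1:**
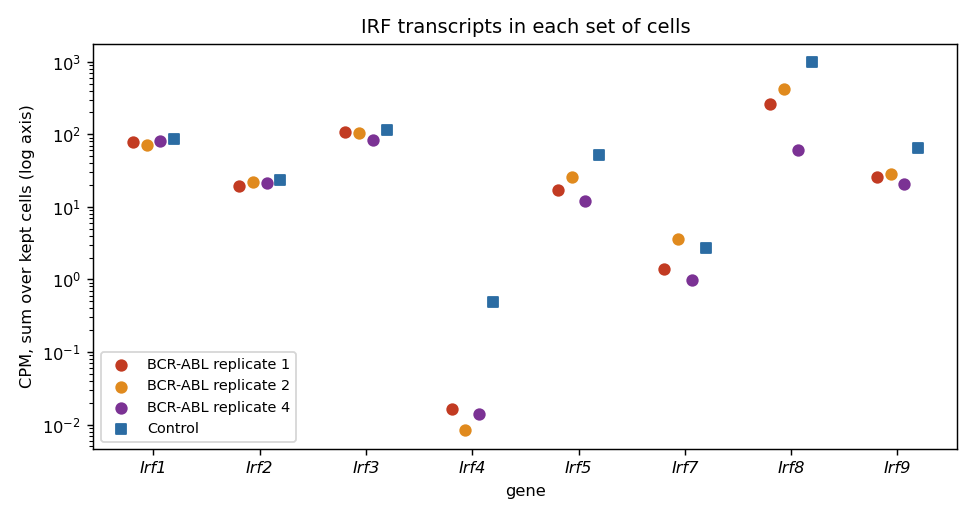
Level of each IRF gene in the sum over the kept cells of each set, in CPM on a log axis; circles are the 3 BCR-ABL sets and squares the control set, with no error within a set. Irf8, Irf5 and Irf9 stand at least 2.06-fold lower in every BCR-ABL set than in the control, Irf1, Irf2 and Irf3 lie close together, and the Irf4 values rest on 1 to 69 reads.

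Differences between BCR-ABL and control were tested with edgeR's quasi-likelihood test on the summed counts of 3 sets against 1, with Benjamini-Hochberg adjustment over 20324 genes. All 8 members passed the filter on low counts, Irf4 only through 1 control cell. None of the 8 was called at an adjusted p under 0.05, and neither was any other gene (0% on the higher and 0% on the lower side). An unadjusted p under 0.05 was given by edgeR to 771 higher genes (3.79%) and 688 lower ones (3.39%), Irf4, Irf5 and Irf9 among the latter. DESeq2, run on these sums as an alternative, called 394 genes higher (1.94% of those tested) and 163 lower (0.802%), and 2 members, Irf5 and Irf9, were among the lower ones. limma-voom called none, with an unadjusted p under 0.05 for 488 higher and 1171 lower genes. Of the 8 log2 fold changes all were negative, where 45.8% of all genes had a negative one, and the median was -0.91 against 0.05 for all genes tested. In 7 members all 3 BCR-ABL sets lay below the control, as they did in 26.6% of all genes, and the exception was Irf7. No member had all 3 above it, against 24.2% of all genes. Irf4 passed the filter only through the control, so its negative sign adds no support to these counts. Of the 6 members with 10 reads in 25% of a set's cells at equal depth, all were negative (median -0.8). Of all genes at that limit, 4489 of 9045 were negative. With cells brought to equal depth, the values of Irf1, Irf2 and Irf7 turned to 0.04, 0.01 and 0.02.

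Irf8 (ENSMUSG00000041515, mm10 chromosome 8, 120736358 to 120756694, 11 merged exons) was the member with the highest level in the control. Its promoter and that of Irf1 are shown because both genes are known to be induced by interferon gamma, which acts through gamma-activated sites. Each line gives the 250 bases before the start site, plus strand, from RefSeq on GRCm38.p6 (the assembly also called mm10), with matches to TTCNNNGAA in capitals.
Irf8, chr8:120736108-120736357: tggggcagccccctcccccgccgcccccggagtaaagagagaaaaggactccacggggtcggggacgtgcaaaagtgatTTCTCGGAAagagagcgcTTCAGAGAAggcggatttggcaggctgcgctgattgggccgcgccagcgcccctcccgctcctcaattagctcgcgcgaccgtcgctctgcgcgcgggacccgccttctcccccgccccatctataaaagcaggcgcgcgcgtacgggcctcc
Irf1, chr11:53769764-53770013: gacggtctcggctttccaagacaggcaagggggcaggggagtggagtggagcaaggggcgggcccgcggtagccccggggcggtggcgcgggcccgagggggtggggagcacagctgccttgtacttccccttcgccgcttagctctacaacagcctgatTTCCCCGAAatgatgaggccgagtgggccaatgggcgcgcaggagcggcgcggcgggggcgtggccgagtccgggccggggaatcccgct
The motif reads the same on both strands. It matched at -171 to -163 and at -153 to -145 from the Irf8 start site and at -90 to -82 from the Irf1 start site. Of 32851 mouse promoter windows of this length, 7.02% hold it. Among 11 windows of the 8 members the only other match was in Irf2, at -224 to -216. A second motif of interferon-response elements, GAAANNGAAA on either strand, is held by 2.98% of windows, and among members only by Irf2, at -241 to -232. It overlapped no match of the first. These matches describe the letters and are no evidence of binding.

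The 3 BCR-ABL sets had 264, 424 and 61.4 CPM of Irf8, and the control had 980. No BCR-ABL set reached the control, and the BCR-ABL sets themselves differed by up to 6.92-fold. The log2 fold change was -1.97 (SE 0.93), with edgeR's adjusted p at 0.76 and DESeq2's at 0.611. It was -2.01, -2.59 and -1.51 without replicates 1, 2 and 4. In replicate 4 a single cell held 53.9% of all Irf8 reads, against 14%, 11.5% and 5.83% in the richest cell of the other sets. Without the richest cell of each set, levels were 236, 384 and 29.3 CPM against 946, and the log2 fold change was -2.13.

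Shares were taken after random thinning of every cell to 674952 reads (the 10 percentile of depth), for which 65, 54, 81 and 90 cells were deep enough and 33 were not. A cell counts as having a transcript at 10 reads or more. Irf8 was present in 41.5% of cells in replicate 1 (95% exact binomial interval 29.4 to 54.4), 63% in replicate 2 (48.7 to 75.7) and 19.8% in replicate 4 (11.7 to 30.1). In the control it was present in 84.4% (75.3 to 91.2), above the interval of replicate 1 and of replicate 4 and touching only the top of that of replicate 2. These intervals cover counting error only, since reads without molecular identifiers are not independent molecules. As a background, Cd3e, a gene of T cells, reached 10 reads in 0 cells of each set, with an exact interval up to 6.6% in the smallest.

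Both the number of Irf8-positive cells and the amount in them differed. Among cells with the transcript, median Irf8 was 548, 433 and 80 CPM with BCR-ABL, against 1045 in control cells. Cells with at least 500 Irf8 reads at equal depth made up 13.8%, 20.4% and 1.2% of BCR-ABL cells and 60% of control cells. At the other end, cells without any Irf8 read made up 27.7%, 18.5% and 63% of the BCR-ABL cells, against 2.2% of control cells. The distribution was therefore split in replicates 1 and 2, mostly at or near 0 in replicate 4, and mostly high in the control. Reads can also pass between wells that are handled together, as the wells of a set are taken to be here. Judged by Prss34, picked with its values in view because nearly all its reads in replicate 1 lay in 1 well, each other well received 7.49e-05 of a gene's reads. Prg2 and Epx in replicate 4 gave 6.97e-05 and 7.15e-05. The highest rate was used, and all came from BCR-ABL sets. At the rate of Prss34 a control well would receive 10.4 Irf8 reads before thinning, against 2.44, 3.83 and 0.659 in the BCR-ABL sets. The limit of 10 reads applies after thinning, which lowers such numbers. For the other members the expected number was at most 1.21 reads before thinning. How many of the 12 control cells with 1 to 9 Irf8 reads owe them to such passage was not tested.

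**Figure D2:**
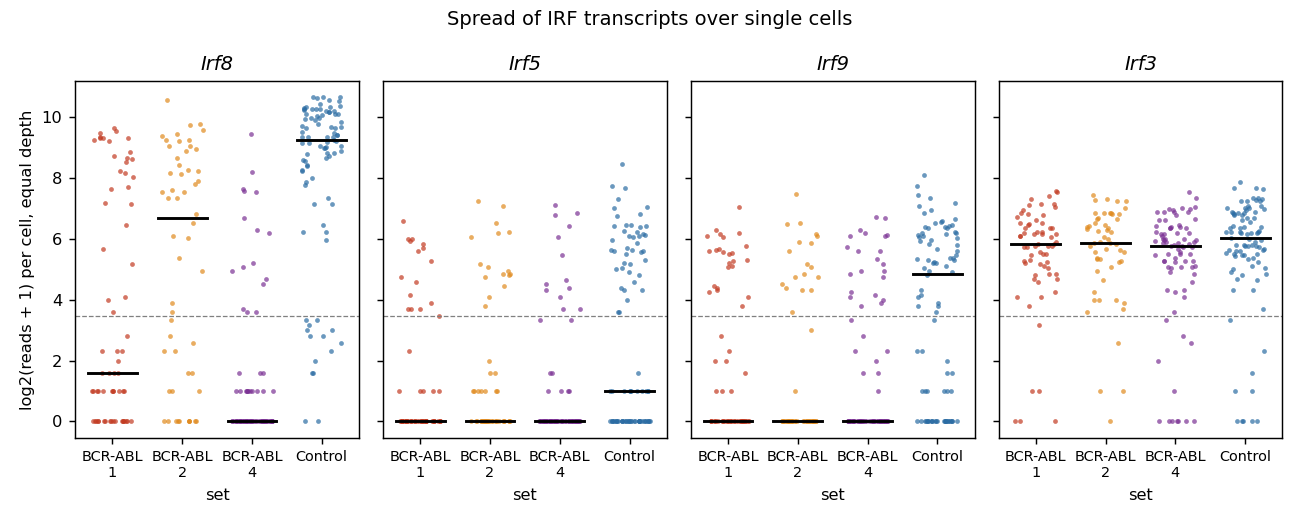
Reads of Irf8, Irf5, Irf9 and Irf3 in single cells thinned to equal depth, as log2(reads + 1) by set; each point is 1 cell, the black bar is the median of the set and the dashed line marks 10 reads. Irf8 is spread over the whole scale in BCR-ABL replicates 1 and 2, lies mostly at 0 in replicate 4 (63% of cells) and is mostly high in the control, while Irf3 is alike in all 4 sets.

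Irf4 (ENSMUSG00000021356, chromosome 13, 30749226 to 30766976), the closest relative of Irf8 and a factor of lymphocytes and dendritic cells, was almost absent. It had 2, 1 and 2 reads with BCR-ABL, against 69 in the control, where 1 cell held 68 of them. That cell had 655 Irf8 reads, 503 reads of the monocyte receptor gene Csf1r, 136 of Tcf4, which is on the dendritic list, and 341 of Ighm, which is on the lymphoid list, and no Siglech read. Tcf4 and Ighm do not set the cell apart, since 65.6% and 83.3% of control cells had them at equal depth. The 2 reads of replicate 4 lay in the well with 19454 genes. At equal depth, 0 of 65, 0 of 54 and 0 of 81 BCR-ABL cells had 10 Irf4 reads, which allows up to 4.62%, 5.56% and 3.7%, against 1 of 90 control cells (1.1%, interval 0.0 to 6.0). Its fitted log2 fold change of -5.15 (SE 1.12, edgeR's adjusted p 0.624) thus rests on 1 control cell; it could not be fitted without that cell and was -5.77 without the well of 19454 genes.

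Of the factors that act below pathogen sensors, Irf3 was the most even and Irf7 the rarest. Irf3 (ENSMUSG00000003184, chromosome 7, 44997648 to 45002848), which is held in the cytoplasm until TBK1 phosphorylates it, stood at 106, 105 and 84 CPM against 115 in the control. It was present in 90.8%, 92.6% and 85.2% of BCR-ABL cells and in 88.9% of control cells, with overlapping intervals. Its log2 fold change was -0.22 (SE 0.20), which edgeR did not call (adjusted p 0.858). Irf7 (ENSMUSG00000025498, chromosome 7, 141262706 to 141266481, minus strand), which amplifies type I interferon once induced, stood at 1.41, 3.62 and 0.997 CPM against 2.74. Replicate 2 lay above the control, and 47.4% to 81.1% of a set's Irf7 reads lay in 1 cell. At equal depth 3, 3, 1 and 3 cells had 10 Irf7 reads, or 4.6%, 5.6%, 1.2% and 3.3%. The log2 fold change of -0.45 (SE 0.88, edgeR's adjusted p 0.975) was 0.02 with thinned cells and -1.19 without replicate 2.

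Irf5 (ENSMUSG00000029771, chromosome 6, 29526625 to 29541871), which relays Toll-like receptor signals to cytokine genes in myeloid cells, had 17, 25.6 and 12.2 CPM in the sets with BCR-ABL and 52.6 in the control. Every BCR-ABL set was lower, by 2.06-fold in the nearest and 4.33-fold in the farthest. The log2 fold change was -1.53 (SE 0.43); edgeR's adjusted p was 0.646 and DESeq2's 0.0254. Over the alternatives tried, the value ran from -1.85 to -1.31. At equal depth the transcript was present in 24.6%, 29.6% and 16% of BCR-ABL cells and in 47.8% of control cells (37.1 to 58.6). Only replicate 2 had an interval (18 to 43.6) that overlapped that of the control. Of the Irf5 exon bases, 14.1% are shared with Tnpo3 on the other strand, and the strand setting of the counting is not given in the sources used here, so reads there cannot be assigned. For the other members the shared part was at most 3.4%.

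Irf9 (ENSMUSG00000002325, chromosome 14, 55603571 to 55610030), the DNA-binding subunit of the type I interferon complex, stood at 25.7, 28.5 and 20.5 CPM against 64.4. The BCR-ABL sets lay within 1.39-fold of each other, and the control was 2.26-fold above the highest. The log2 fold change was -1.37 (SE 0.24), with the smallest p of the family (edgeR's quasi-likelihood adjusted p 0.604, DESeq2's 0.000464). Irf9 was present in 36.9%, 33.3% and 27.2% of BCR-ABL cells and in 58.9% of control cells (48 to 69.2). The control interval began above those of replicates 2 and 4 and met only the top of that of replicate 1 (25.3 to 49.8).

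Irf1 and Irf2, the activator and the antagonist that bind the same elements, varied least between sets. Irf1 (ENSMUSG00000018899, chromosome 11, 53770014 to 53778374) stood at 78.8, 72.1 and 82.0 CPM against 85.6, a log2 fold change of -0.14 (SE 0.16, edgeR's adjusted p 0.914) that turned to 0.04 with thinned cells. Its share of cells pointed the other way, at 72.3%, 75.9% and 80.2% against 67.8%. All 3 BCR-ABL shares were above that of the control, with overlapping intervals. Irf2 (ENSMUSG00000031627, chromosome 8, 46739732 to 46847458) stood at 19.5, 21.8 and 21.3 CPM against 23.7, with a log2 fold change of -0.18 (SE 0.22, edgeR's adjusted p 0.926) that turned to 0.01 with thinned cells. It was present in 44.6%, 59.3% and 54.3% of BCR-ABL cells and in 57.8% of control cells.

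**Figure D3:**
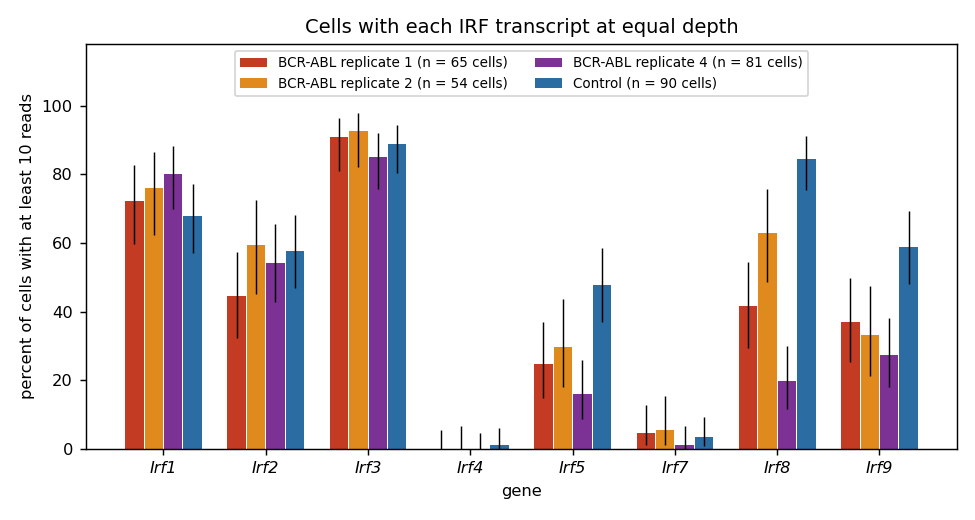
Percent of cells with at least 10 reads of each IRF gene after thinning to equal depth, by set; bars start at 0 and error lines are 95% exact binomial intervals, which cover counting error only. The control bar is the highest of the 4 for Irf8 (84.4%), Irf9 (58.9%) and Irf5 (47.8%), and the lowest for Irf1 (67.8%).

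Counted together, a cell expressed 3.15 ± 1.33 of the 8 members in replicate 1 (SD over cells), 3.59 ± 1.31 in replicate 2, 2.84 ± 1.07 in replicate 4 and 4.10 ± 1.44 in the control. At least 4 members were present in 38.5%, 55.6% and 24.7% of BCR-ABL cells and in 70% of control cells.

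Within each set, cells with at least 10 Irf8 reads were set beside the remaining cells of that set. Irf5 averaged 23.8 CPM in the Irf8-positive cells of replicate 1 against 6.9 in the others, 26.7 against 18.4 in replicate 2, 43.9 against 5.33 in replicate 4 and 58.3 against 16.6 in the control. It was thus higher beside Irf8 in each of the 4 sets. Irf9 had no common direction, at 23 against 27.7, 33.1 against 11, 27.2 against 16.6 and 63.3 against 53.1 CPM. The classes held 27 and 38, 34 and 20, 16 and 65, and 76 and 14 cells. They are not compared between sets, because Irf8-positive cells of different sets did not hold the same amount of Irf8. At the rate given above, a control well would also receive more Irf8 reads from other wells than a BCR-ABL well.

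Relations between transcripts were described by Spearman's rho across the thinned cells of each set (65, 54, 81 and 90). Cells of a set may share a plate and an animal, which the labels do not state, so no p is given. Within the family the pair with the highest rho was Irf8 and Irf5, at 0.49, 0.20, 0.34 and 0.37 in the 4 sets. Of the Irf5-positive cells, 12 of 16, 12 of 16, 8 of 13 and 40 of 43 also had Irf8, a larger share in each set than that of Irf8 over all its cells. Irf8 and Irf9 gave 0.05, 0.17, 0.00 and 0.18, and over all other pairs without Irf4 the mean of the 4 sets was between -0.12 and 0.12.

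The monocyte list holds Csf1r, Ly86, Ccr2 and 15 other genes of the monocyte line, and 13 of its 18 genes were common enough to enter a score per cell, the mean of log2(reads + 1). Irf8 followed this score with a rho of 0.78, 0.83, 0.24 and 0.78. The relation was thus alike in replicates 1 and 2 and the control and weaker in replicate 4, where few cells had Irf8. Against 15 primary granule genes, such as Elane and Mpo, rho was -0.47, -0.16, -0.18 and -0.39. The genes of this list were not alike. Elane gave -0.46, -0.09, -0.17 and -0.20, Mpo -0.38, -0.01, -0.10 and -0.21, and Prtn3 -0.02, 0.02, -0.04 and -0.01. Against 6 late granule genes, such as Lcn2 and S100a8, rho was -0.16, -0.01, -0.23 and 0.00. Of single regulators, Cebpe, which drives late neutrophil differentiation, gave -0.51, -0.58, -0.24 and -0.46. Gfi1, the repressor that opposes Irf8 in this fate choice, gave -0.49, -0.47, -0.16 and -0.25. Cebpe and Gfi1 are both among the 15 primary granule genes, so their values are not separate from those of that score. Irf8 itself gave 0.12, 0.39, 0.19 and 0.13 with reads per well before thinning and 0.46, 0.41, 0.22 and -0.06 with genes per thinned cell.

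**Figure D4:**
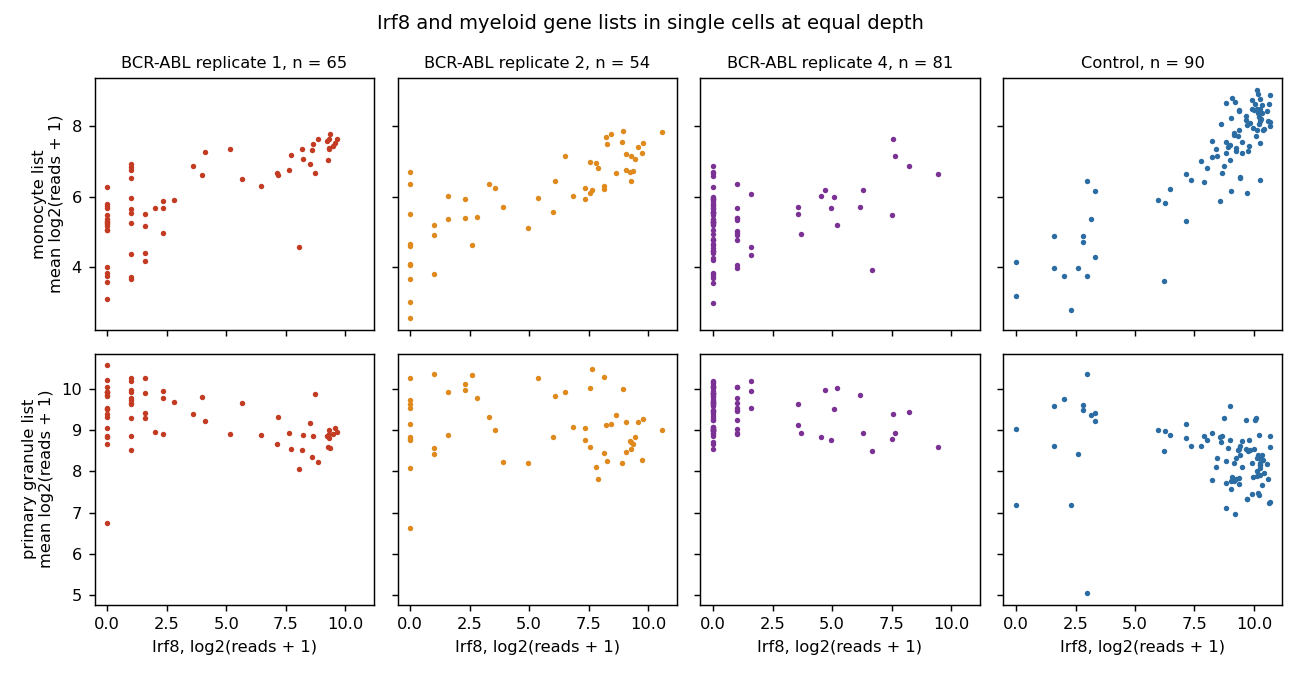
Irf8 in single cells at equal depth, as log2(reads + 1), against the mean log2(reads + 1) of 13 monocyte genes (upper row) and 15 primary granule genes (lower row), 1 panel per set and 1 point per cell. The monocyte score rises with Irf8 in replicates 1 and 2 and the control (rho 0.78, 0.83 and 0.78) and less in replicate 4 (0.24), and the granule score falls with it in all 4 sets (rho between -0.47 and -0.16).

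Irf5 followed the monocyte score less closely, at rho 0.29, 0.23, 0.18 and 0.50, and gave -0.26, -0.21, -0.19 and -0.29 with Cebpe. Irf9 gave 0.12, 0.19, 0.01 and 0.16 with the monocyte score. Irf1, Irf2, Irf3 and Irf7 had a mean rho with it between 0.00 and 0.09, which left Irf8 and Irf5 as the members with the highest rho. With a score of 21 interferon-stimulated genes, Irf8 gave 0.50, 0.41, 0.38 and 0.32 and Irf5 0.35, 0.27, 0.29 and 0.25. Irf9 gave 0.04, 0.28, 0.23 and 0.31, Irf7 0.19, 0.39, 0.16 and 0.07, and Irf1 0.09, 0.23, 0.08 and 0.18. The means of Irf2 and Irf3 over the 4 sets were -0.01 and 0.03.

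**Figure D5:**
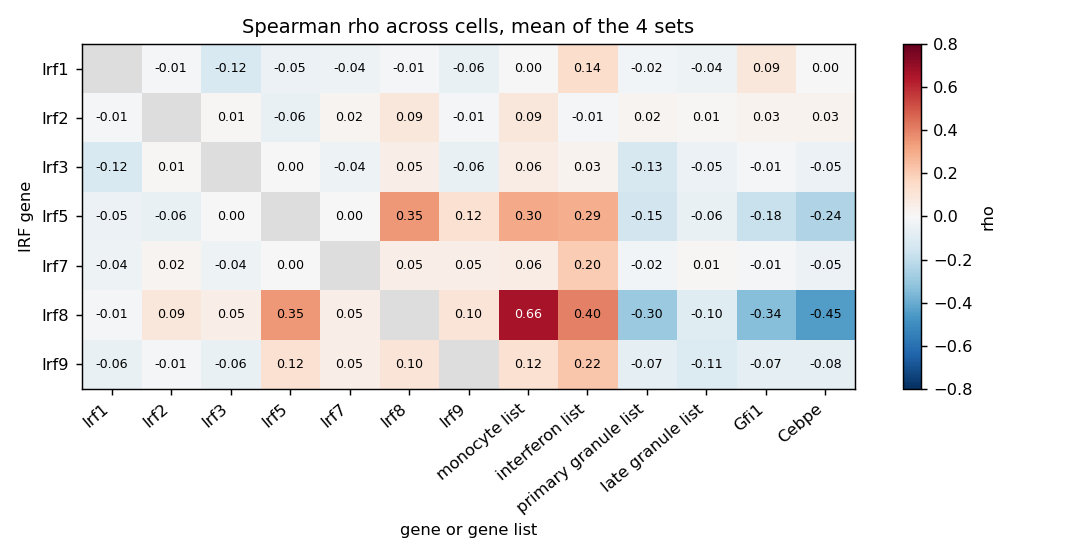
Spearman's rho between IRF genes (rows) and other members, gene lists and 2 regulators (columns) across cells thinned to equal depth, as the mean of 4 within-set values; grey marks a gene with itself, and Irf4 is left out because it was read in at most 2 cells of a set. Irf8 and Irf5 stand out, with 0.66 and 0.30 for the monocyte list and -0.45 and -0.24 for Cebpe.

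The genes most like each member were ranked by mean rho over the 4 sets among 7031 genes with 10 reads in 25% of the thinned cells of every set. For Irf8 the 10 highest were Emb (0.60), Csf1r (0.55), Txndc5 (0.52), Ctsc (0.52), F13a1 (0.52), Ccr2 (0.50), Ms4a6c (0.47), BC035044 (0.47), Tifab (0.45) and Rassf4 (0.45). The middle 95% of the 7031 genes lay between -0.18 and 0.25. Emb, Csf1r, F13a1, Ccr2 and Ms4a6c belong to the monocyte list, and Ctsc, which encodes the protease that activates granule serine proteases, to the primary granule list. Emb gave 0.68, 0.68, 0.39 and 0.64 in the 4 sets, with replicate 4 lowest. The 5 lowest for Irf8 were Cd63 (-0.51), Pglyrp1 (-0.51), Nkg7 (-0.49), Srgn (-0.48) and Cebpe (-0.45). Cd63 and Srgn encode granule proteins, and Pglyrp1 a bactericidal protein of neutrophil granules.

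The most like of the other members were less close. For Irf5 they were Unc93b1 (0.35), which escorts Toll-like receptors to the endosome, Ly6e (0.30) and Arhgdia (0.30). Irf7 was nearest to Igtp (0.22), an interferon-induced GTPase, then Fam102b and Vps37a (0.20 each). Irf9 was nearest to Atic (0.24), Pih1d1 and Rap2b (0.23 each), and Irf1 to Casp4 (0.25), an inflammatory caspase, Cep70 (0.22) and Sec24c (0.21). Irf3 was nearest to Akap8 (0.26), Prpf31 (0.25) and Hdgfl2 (0.24), and Irf2 to Arid1b (0.24), Arl11 (0.21) and Cbfa2t2 (0.20). For Irf1, Irf2, Irf3, Irf5, Irf7 and Irf9 the middle 95% of genes ended between 0.12 and 0.16.

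Genes around the IRFs were read from the same edgeR fit, in which none was called. Of 14 genes of interferon receptors and JAK-STAT signalling, 5 had a positive and 9 a negative log2 fold change (median -0.23), and 1 positive and 3 negative ones had an unadjusted p under 0.05. Ifnar2, a chain of the type I interferon receptor, stood at 134, 144 and 119 CPM against 219. Stat3, which acts below cytokine receptors, stood at 148, 141 and 200 CPM against 95.3. Usp18, an interferon-induced brake on the receptor, also had an unadjusted p under 0.05 and is named after its values were seen, with 271, 48, 255 and 1154 reads. Ifngr1, the interferon gamma receptor chain, stood at 1166, 858 and 1571 CPM against 653. Of 18 sensor and adaptor genes that activate Irf3, Irf5 and Irf7, 8 had a positive and 10 a negative value (median -0.04), with an unadjusted p under 0.05 for 1 of each. The positive one was Tlr4, the endotoxin receptor, at 28.6, 27.6 and 29.5 CPM against 13.6. The negative one, named after its values were seen, was Tlr9, with 0, 0, 2 and 53 reads. Tlr9 passed the filter on low counts only through the control set. Myd88, the adaptor of both, stood at 100, 98.7 and 74.3 CPM against 61.7.

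Of 11 tested genes of IRF partners, such as Spi1, the median log2 fold change was 0.06, and a single gene, on the higher side, had an unadjusted p under 0.05. It was Irf2bpl, related to the Irf2 binding proteins, at 4.22, 3.82 and 3.57 CPM against 0.319, with 522, 460, 512 and 45 reads. Up to 53.3% of a set's Irf2bpl reads lay in 1 cell, and the gene is named after its values were seen. Batf, which pairs with Irf4 and Irf8, stood at 50.1, 54.2 and 31.2 CPM against 39.6, and Batf3 had no reads in 3 of the 4 sets.

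Of 39 tested interferon-stimulated genes, 34 had a negative log2 fold change (median -0.51), 9 of them had an unadjusted p under 0.05 against 0 of the positive ones, and edgeR called none. Ifi203, an interferon-inducible DNA-binding protein, stood at 14.6, 16.3 and 8.05 CPM against 53.1, and Trim30a, a regulator of Toll-like receptor signals, at 47.9, 44.7 and 44.1 against 74.8. For the antigen presentation genes B2m and Tap1 the log2 fold change was -0.35 (SE 0.12) and -0.39 (SE 0.14). All 4 were lower in every BCR-ABL set. The antiviral genes Mx1 and Mx2, also among the 9 and named after their values were seen, had at most 15 reads in a BCR-ABL set against 881 and 466 in the control. Mx1, and Ifi44 of the same 9 (1, 0, 4 and 114 reads), passed the filter on low counts only through the control set. Their p-values are therefore no support for a difference. Of the 24 list genes with 10 reads in 25% of the thinned cells of a set, 20 were negative (median -0.37). Of all genes at that limit, 4489 of 9045 were negative. DESeq2 called 4 of the 39.

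Lists of monocyte and granule genes also differed between the sets. All 18 monocyte genes had a negative log2 fold change (median -0.99), 8 at an unadjusted p under 0.05, and their summed level was 7180, 7808 and 6151 CPM against 10332. Of 15 primary granule genes 14 had a positive one (median 0.82), 11 at an unadjusted p under 0.05. Of 15 tested late granule genes 13 were positive (median 1.6), with that p reached by 7 on the higher side and by Lyz2 on the lower. Irf8 levels over the 4 sets ranked as the monocyte sum did, with replicate 4 lowest and the control highest. Whether the share of monocyte-directed cells accounts for the levels of Irf8 and Irf5 was not tested. Dendritic markers summed to 63, 59 and 70.9 CPM against 81.8, of which Tcf4 made up 34, 36.3 and 30.2 against 60.1. Without Tcf4, left out with its values in view, replicates 1 and 2 summed to 28.9 and 22.7 CPM against 21.7 in the control. H2-Ab1 stood at 27.1, 20 and 36.3 CPM against 19. Of 9 tested dendritic genes 4 had a positive and 5 a negative log2 fold change. Siglech, the marker of plasmacytoid cells, had 1, 0, 2 and 52 reads. At equal depth, 2 of 90 control cells had a Siglech read and 1 had 10 or more. Lymphoid markers summed to 99.2, 202 and 82.6 CPM against 616, of which Ighm made up 23.6, 129 and 22.3 against 519, with Ms4a1 at 0 in 3 of the 4 sets. Macrophage markers summed to 32.3, 56.6 and 101 CPM against 30.1, of which Vcam1, an adhesion molecule, made up 27, 41 and 94 against 6.41. Without Vcam1, left out with its values in view, the sums were 5.39, 15.6 and 6.77 CPM against 23.7, so that the BCR-ABL sets lay below the control. Of 8 tested macrophage genes 6 had a negative log2 fold change (median -4.56). Among the 6, C1qa, C1qc, Cd5l and Spic had at most 4 reads in a BCR-ABL set and passed the filter on low counts only through the control. This median is therefore no support for a difference. Only Vcam1 had 10 reads in 25% of the thinned cells of a set, with a log2 fold change of 3.07. C1qa and C1qc were at 0 in the BCR-ABL sets, and 99.2% of the 131 control reads of C1qc lay in 1 cell. Erythroid markers summed to 18.3, 34.7 and 35.9 CPM against 28, and to 16.1, 18.3 and 32.6 against 17.5 without the richest cell of each set. Markers of basophils, mast cells and eosinophils summed to 320, 520 and 1463 CPM against 405. In each set 1 cell held most of these reads (74.8%, 59.5%, 85% and 70.9%), and without it the sums were 81.4, 215 and 222 CPM against 120. The part of these other cell types in the IRF levels was not tested.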

How the data were processed

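RNA was measured by SMART-seq2 in single sorted GMPs, 384 wells in 4 sets. The deposited values are raw counts of reads per Ensembl gene and well, made by the authors with GSNAP, HTSeq 0.5.3p3 and the mm10 build, per the submitters' processing notes. Neither annotation release nor strand setting is given in the sources used here. Of all reads 44.9% lay on genes; 92 spike-in and 5 summary rows (40.9% not aligned, 7.7% outside features, 6.2% ambiguous) stayed out of library sizes. Symbols, exon lengths and positions came from GENCODE vM21, which named 45229 of 46078 rows.

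Counts were summed per set and tested with edgeR 4.0.16 (TMM, filterByExpr, quasi-likelihood F test) in R 4.3.3. The spread comes from the BCR-ABL sets alone, and the control set is assumed to vary as they do. The common biological coefficient of variation of the whole fit was 0.68. DESeq2 1.42.0 and limma 3.58.1 were alternatives. The test and the ranking by rho were tested on simulated data. Replicates came from no paired design. No doublet caller was run. Members, lists and tests were chosen with earlier results of these data known. Genes were named by rule: all members, up to 4 genes per list with the smallest p and 10 reads in 25% of the thinned cells of a set, and the genes nearest each member; a subset of these was printed.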

Additional observations from a re-analysis of the deposited data

How the results depend on the processing

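With DESeq2 the count of called genes went from 0 to 557, and Irf5 (log2 fold change -1.53, adjusted p 0.0254) and Irf9 (-1.37, adjusted p 0.000464) passed the threshold that edgeR's fit did not reach; the cause was not tested. Under RLE factors, limma-voom, no filter on low counts, a stricter filter on wells and thinned wells the count stayed at 0. Sign turned with thinned wells for Irf1 (0.04), Irf2 (0.01) and Irf7 (0.02), and Irf1 also with each well weighted equally (0.03). Leaving out each BCR-ABL set in turn gave 0 calls each time, log2 fold changes of -2.59 to -1.51 for Irf8, -1.85 to -1.31 for Irf5 and -1.48 to -1.25 for Irf9, and a difference in the share of cells with Irf8 of -53.8 to -32.2 points around -43.0. Over all alternatives adjusted p-values ran from 0.0254 to 0.921 for Irf5, 0.57 to 0.953 for Irf8 and 0.000464 to 0.921 for Irf9. The mean rho of Irf8 with the monocyte list, 0.66, was between 0.60 and 0.79, highest without replicate 4. The difference in the share of cells with Irf3, 0.6 points, turned negative at a limit of 20 reads (-4.5), with the 5 percentile of depth (-1.6), at 5 CPM in unthinned wells (-3.0) and without replicate 2 (-0.9). That of Irf7, 0.5 points, turned negative at a limit of 1 read (-0.1), with the 5 percentile of depth (-0.7) and without replicate 2 (-0.4), and that of Irf4 was 0.0 points at a limit of 1 read. Leaving out the well with 19454 genes was chosen after seeing the data and changed no call. No paired analysis was possible because the control has 1 set. For Irf4 and Irf7, few cells had any reads, so the shares rest on at most 3 cells in a set.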
